A study of Homo sapiens with 22 samples.

Results

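A set of 6 gene loci of the 22Rv1 genome were followed across 8 chromatin immunoprecipitation (ChIP-seq) peak lists. They are UNCX, SHH, PTPRN2, RBFOX3 and CELF4, each taken as its hg19 span widened by 20 kb on both sides, and the promoter window of LRRC7. The 6 loci held 719 of the 291055 regions in all 8 lists. They had been chosen by their H3K27me3 regions, which differed between H1-10 OE and Ctrl cells, and LRRC7 was also selected on its Pol2S5p and E2F3 regions. Everything about H3K27me3 in that contrast is therefore a description, as are Pol2S5p and E2F3 at LRRC7.

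The cells were 22Rv1, a line derived from a human prostate carcinoma. The groups were H1-10 OE, cells overexpressing the linker histone variant H1-10, and Ctrl, each with 1 library of H3K27me3, of Pol2S5p (RNA polymerase II carrying phosphate on serine 5 of its tail) and of E2F3. A further pair of Pol2S5p libraries came from cells given an siRNA against E2F3 (siE2F3) or a control siRNA (siCtrl). The sample labels give these siRNA cells no overexpression, but the peak names inside both lists carry an H1-10 overexpression tag, so their background is uncertain. Of the 22 samples, 8 had a list used here, with 1 library per group. The other 14, which are inputs and Flag ChIP of H1-10, were not analysed here. Without replicates, the spread between libraries of a group is unknown and p-values are not given. Whether a single cell clone was used is not stated in the labels.

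H3K27me3 is the mark left by Polycomb repressive complex 2, and in most adult cells it covers developmental regulators that the tissue does not use, often as broad domains spanning a whole gene and its flanks. Serine 5 phosphorylation marks polymerase that has begun transcription and is still close to a promoter. E2F3 is a transcription factor that acts on cell cycle genes. UNCX encodes a homeodomain transcription factor of the somites and nervous system, and SHH encodes the secreted ligand Sonic hedgehog. PTPRN2 encodes a receptor-type phosphatase family protein of secretory vesicles in neuroendocrine cells. RBFOX3, known as the neuronal marker NeuN, and CELF4 encode RNA-binding splicing regulators of neurons. LRRC7, or densin-180, is a scaffold protein of the postsynaptic density.

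The sequences just upstream of a RefSeq start of 4 of these genes are shown because Polycomb domains in mammals often begin at CpG-rich promoters. Each line gives the 250 bases before a RefSeq transcription start on GRCh38.p14, 5′ to 3′ on the gene's strand, with CG dinucleotides in capitals. UNCX lies at chr7:1232622-1232871 (plus strand), SHH at chr7:155812464-155812713 (minus), CELF4 at chr18:37485793-37486042 (minus), and the second of 3 LRRC7 starts at chr1:69568503-69568752 (plus). These GRCh38 positions cannot be set against the hg19 positions of the peaks, so whether a peak region holds these bases was not established. The gene starts used below are ends of the hg19 spans. A sequence shown here, that of CELF4 included, may belong to another start of its gene.
UNCX: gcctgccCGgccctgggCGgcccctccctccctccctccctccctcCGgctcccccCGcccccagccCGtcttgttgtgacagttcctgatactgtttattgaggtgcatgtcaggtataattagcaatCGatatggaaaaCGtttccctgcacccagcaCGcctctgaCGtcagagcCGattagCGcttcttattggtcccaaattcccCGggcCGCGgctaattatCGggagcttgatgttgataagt
SHH: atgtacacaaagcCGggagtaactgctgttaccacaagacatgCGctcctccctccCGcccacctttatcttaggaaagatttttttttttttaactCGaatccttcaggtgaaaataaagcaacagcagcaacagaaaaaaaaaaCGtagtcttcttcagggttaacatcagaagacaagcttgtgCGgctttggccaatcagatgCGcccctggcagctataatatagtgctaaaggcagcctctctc
CELF4: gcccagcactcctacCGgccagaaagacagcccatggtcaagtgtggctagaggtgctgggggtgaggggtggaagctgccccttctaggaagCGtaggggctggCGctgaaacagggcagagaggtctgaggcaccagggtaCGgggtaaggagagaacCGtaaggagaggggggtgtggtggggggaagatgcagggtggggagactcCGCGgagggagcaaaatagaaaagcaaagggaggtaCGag
LRRC7: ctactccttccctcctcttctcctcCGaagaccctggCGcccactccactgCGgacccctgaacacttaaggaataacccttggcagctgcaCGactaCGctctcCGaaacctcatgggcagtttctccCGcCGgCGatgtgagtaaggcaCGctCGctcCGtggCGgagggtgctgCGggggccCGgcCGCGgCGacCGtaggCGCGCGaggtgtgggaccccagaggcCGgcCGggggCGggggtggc
The UNCX sequence held 15 CG dinucleotides, the SHH sequence 7, the CELF4 sequence 8 and the LRRC7 sequence 25. The LRRC7 start was the most CG-rich of its 3, and 21.6% of all 35116 promoters held as many or more. The median promoter held 11, so UNCX was above it and SHH and CELF4 were below it. The letters TTTCGCGC or TTTGGCGC, spellings of an E2F site searched on both strands, were in 0 of the 18 promoters that RefSeq lists for 5 of these genes, against 0.968% of all promoters. A count of 0 in 18 is what that share would also give. RBFOX3 made up 12 of the 18, and PTPRN2 had no promoter listed. The palindrome TAATTA, a core that homeodomain proteins bind, occurred in the UNCX sequence at 2 places, and 4.35% of all promoters held it at least once. It was looked for after the sequence had been read. These matches describe letters in a window and say nothing of binding.

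The 2 H3K27me3 lists differed in length before any locus was considered. H3K27me3 regions numbered 18395 in H1-10 OE cells and 2540 in Ctrl cells, covering 10.1 Mb and 1.52 Mb. Pol2S5p had 40626 regions in H1-10 OE and 35493 in Ctrl, and E2F3 had 4296 in H1-10 OE and 22988 in Ctrl. The siE2F3 and siCtrl lists held 83067 and 83650. Read depth is unknown here, so how far depth sets these lengths was not tested. Enrichment values (fold over the authors' background, and −log10 q) are the authors' own and are used only within one list. All peak coordinates are hg19 and 1-based.

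UNCX was the only one of the 6 loci with less H3K27me3 coverage in H1-10 OE than in Ctrl cells. Regions covered 0.742 kb of its 43.96-kb locus in H1-10 OE cells, against 27.1 kb in Ctrl cells, which is 1.69% and 61.6% of the locus. The Ctrl signal was made of 12 regions. Joined across gaps of up to 5 kb, 11 of them formed a block of 36.5 kb, 72.1% of it covered, that began upstream of the gene and ran past its end. The region of highest −log10 q in Ctrl lay downstream of the gene, at chr7:1284999-1288749, with a fold enrichment of 12.8, which is the maximum of the whole Ctrl list. The widest one, chr7:1269948-1275703, ran for 5.76 kb over the gene start with a fold of 12.6. Beyond the locus the Ctrl list went on, with 20.1 kb covered in the next 50 kb above it. In H1-10 OE a single region was left, chr7:1272909-1273650, which began 0.255 kb inside the gene, had a fold of 5.48 and lay wholly within the Ctrl block. The nearest other H3K27me3 region of the H1-10 OE list was 147.0 kb outside the locus.

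Initiating polymerase was listed at UNCX in every Pol2S5p library except that of Ctrl. Pol2S5p regions covered 1.58 kb in H1-10 OE cells and 0 kb in Ctrl cells. They covered 3.77 kb in siE2F3 cells and 4.29 kb in siCtrl cells. Of 5 places with Pol2S5p at this locus, those at the gene start and at the end of the gene span were in the H1-10 OE, siE2F3 and siCtrl lists, the other 3 were in the siRNA lists alone, and all 5 overlapped H3K27me3 regions of Ctrl. At the start, the H1-10 OE region chr7:1272391-1272703 had a fold of 3.72. Its −log10 q of 2.37 ranked in the lowest 7.67% of its list, whose minimum was 1.30. The next H3K27me3 region of H1-10 OE began 205 bp beyond this Pol2S5p region. At the end of the gene lay the strongest Pol2S5p region of H1-10 OE at this locus, chr7:1275503-1276771, with a fold of 9.05. The strongest of siCtrl, chr7:1274743-1277442, lay there too. The single E2F3 region, chr7:1275655-1276099 in Ctrl, had a fold of 3.61 and ranked in the lowest 1.14% of its list by −log10 q. It too lay at the end of the gene and met the Pol2S5p regions there.

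**Figure D1:**
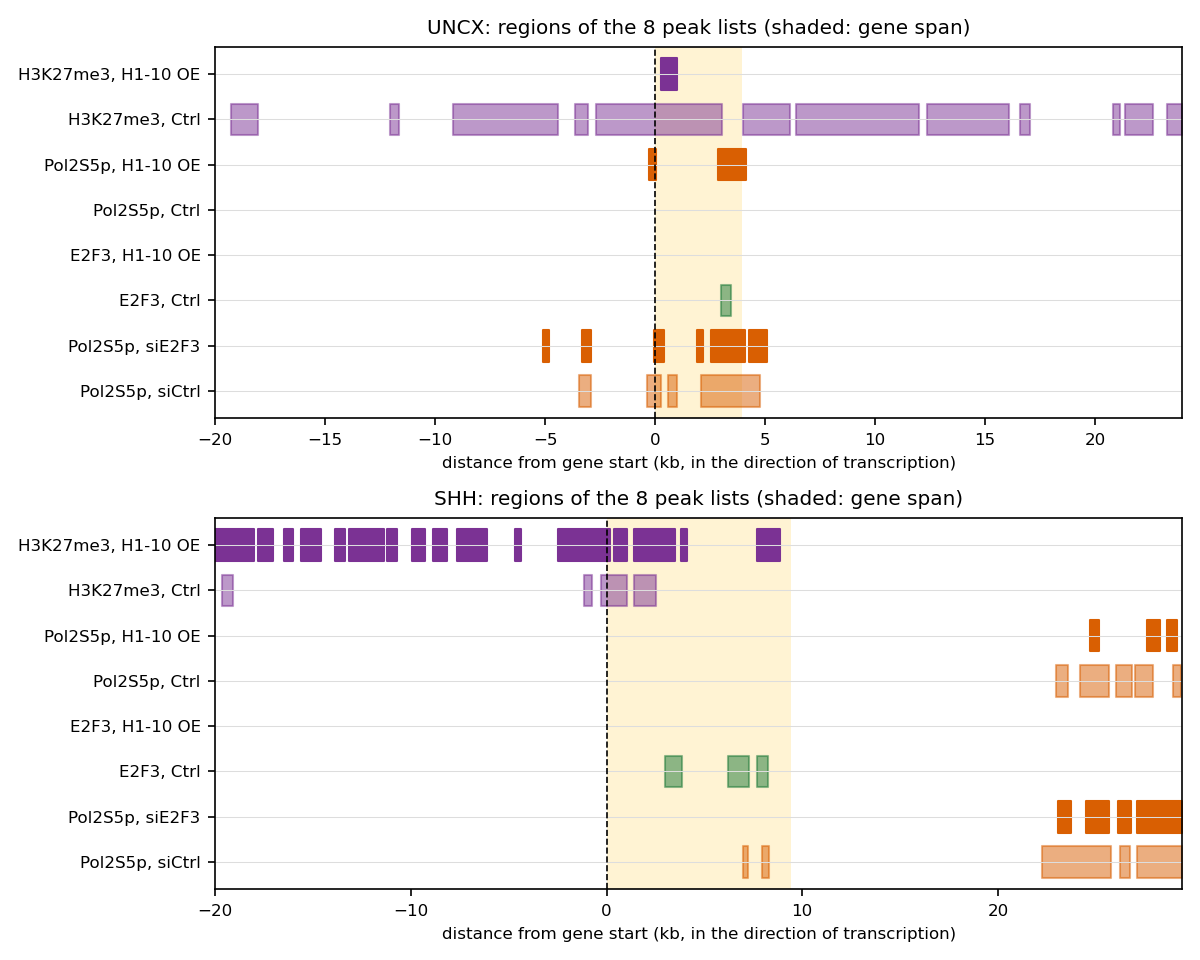
Regions of the 8 peak lists at UNCX (top) and SHH (bottom), drawn as boxes along the distance from the gene start in kb, in the direction of transcription; each row is 1 library, H1-10 OE above Ctrl and siE2F3 above siCtrl, and the shaded band is the gene span. At UNCX the 12 H3K27me3 regions of Ctrl face 1 region in H1-10 OE, and Pol2S5p is in every list except Ctrl. At SHH 16 H3K27me3 regions of H1-10 OE face 4 in Ctrl.

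SHH showed the reverse picture for H3K27me3. Regions covered 17.2 kb of its 49.41-kb locus in H1-10 OE cells, against 3.44 kb in Ctrl cells, which is 34.8% and 6.96% of the locus. The 16 regions of H1-10 OE formed 1 block of 28.9 kb, and the 4 regions of Ctrl formed blocks of which the longest was 3.67 kb. All 4 Ctrl regions overlapped regions of H1-10 OE, so that at SHH no Ctrl region stood alone and the H1-10 OE coverage enclosed most of what Ctrl had (3.18 kb shared). The strongest region of each list lay inside the gene near its start. In H1-10 OE it was chr7:155601489-155603558, with a fold of 7.97 where the median of that list was 4.38. In Ctrl it was chr7:155602454-155603589, with a fold of 8.75 where the median of that list was 4.83. The widest H1-10 OE region, chr7:155604805-155607426, ran over the start and 2.46 kb upstream. Upstream of SHH the H1-10 OE list continued, with 20.7 kb covered in the next 50 kb, against 1.28 kb in Ctrl.

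No Pol2S5p region lay within 5 kb of the SHH start in any of the 4 polymerase lists. The Pol2S5p coverage of this locus was 1.64 kb in H1-10 OE and 4.28 kb in Ctrl, and 4.82 kb in siE2F3 and 7.01 kb in siCtrl. Apart from a pair of regions inside the gene in the siCtrl list, all of it lay between 22.2 and 31.0 kb downstream of the start, beyond the gene's end, on the side of RBM33, which is the next protein-coding gene in RefSeq order. These downstream regions belong to the widened locus rather than to SHH. The E2F3 list of Ctrl held 3 regions within the SHH span. That at chr7:155601111-155601980, with a fold of 7.77, overlapped H3K27me3 regions of H1-10 OE, and that at chr7:155597708-155598751, with a fold of 8.26, did not.

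The long neuronal and neuroendocrine genes held many separate H3K27me3 regions in H1-10 OE cells. At PTPRN2, 384 regions covered 282.8 kb of the 1088.73-kb locus (25.97%) in H1-10 OE cells, against 23 regions and 9.80 kb (0.900%) in Ctrl cells. At RBFOX3, 109 regions covered 112.9 kb (24.2%) in H1-10 OE, against 14 regions and 6.08 kb (1.30%) in Ctrl. At CELF4, 41 regions covered 27.8 kb (7.67%) in H1-10 OE, and the Ctrl list held none, its nearest region being 9611 kb away. Most of these regions were small. The median width was 560 bp at PTPRN2, 696 bp at RBFOX3 and 574 bp at CELF4, against 433 bp over the whole H1-10 OE list.

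The mark was unevenly spread along these genes. With each span divided into 5 equal pieces from the start, PTPRN2 coverage in H1-10 OE was 26.8%, 8.89%, 19.3%, 34.0% and 41.9%, so that the piece next to the start was less covered than the 2 pieces at the far end. In Ctrl the same pieces had 0%, 0.564%, 0%, 1.46% and 2.41%. RBFOX3 was sparsely covered at both ends in H1-10 OE, with 1.61%, 43.4%, 36.7%, 45.3% and 5.23%, against 0.395%, 0.560%, 0.902%, 2.27% and 2.997% in Ctrl. No list had any region within 5 kb of the RBFOX3 start used here, which is the outer end of the given span. RefSeq lists 12 starts of this gene on GRCh38, and these were not placed on hg19. CELF4 declined away from its start in H1-10 OE, with 15.2%, 9.74%, 7.29%, 6.53% and 1.43%. Joined across gaps of up to 5 kb, the longest blocks in H1-10 OE were 108.6 kb at PTPRN2, 79.4 kb at RBFOX3 and 15.1 kb at CELF4. The longest Ctrl blocks were 5.42 kb at PTPRN2 and 5.55 kb at RBFOX3.

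**Figure D2:**
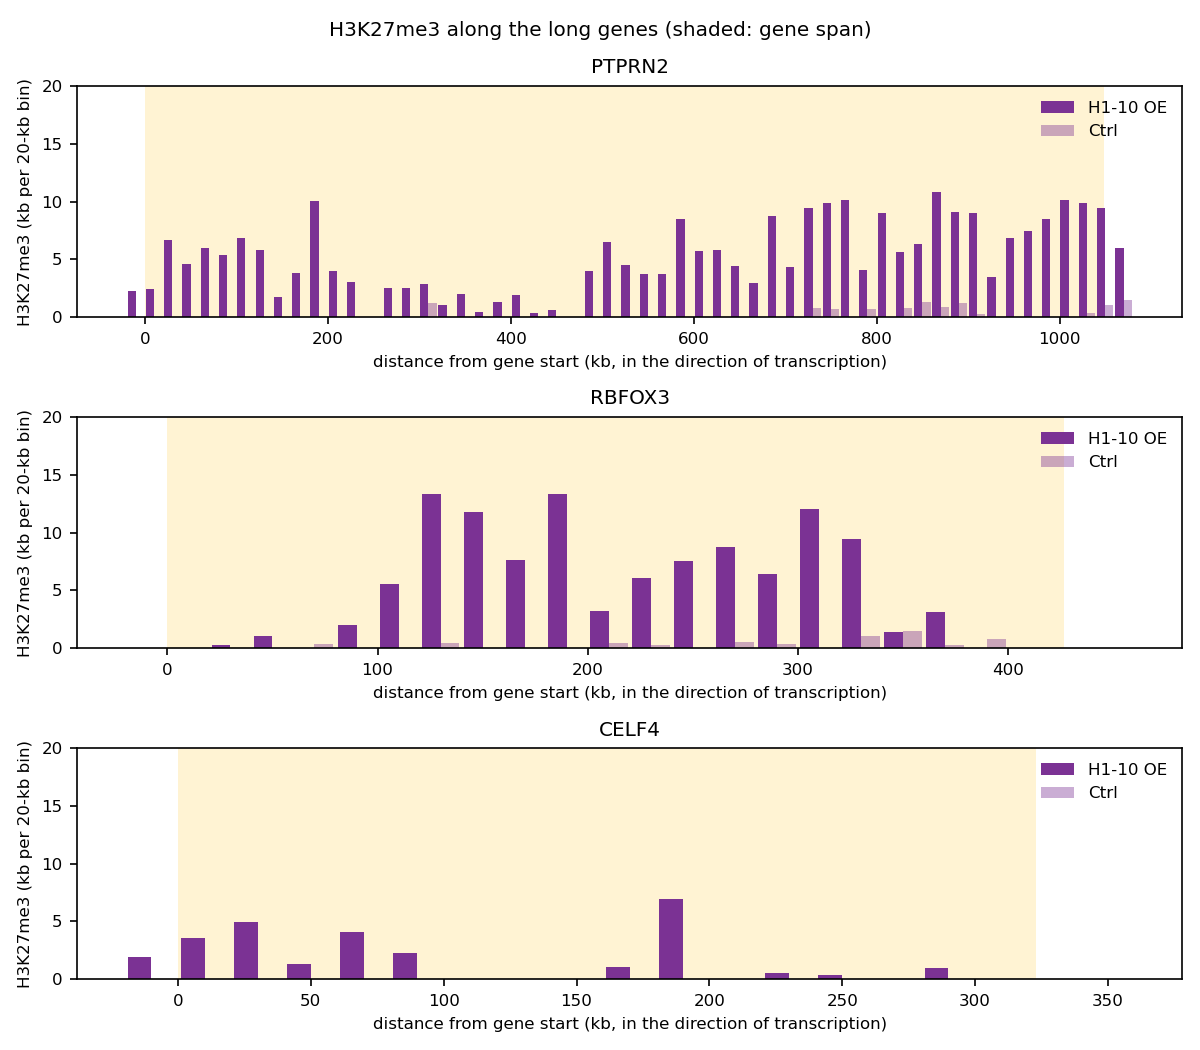
H3K27me3 along PTPRN2, RBFOX3 and CELF4, as covered kb in each bin of 20 kb, against distance from the gene start in kb; dark bars are H1-10 OE, pale bars are Ctrl, 1 library each, and the shaded band is the gene span. The H1-10 OE bars reach 10.8 kb at PTPRN2, 13.3 kb at RBFOX3 and 6.95 kb at CELF4, and the CELF4 panel has no Ctrl bar.

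The strongest H3K27me3 regions of these genes in H1-10 OE were well above the list's median fold of 4.38. At PTPRN2 the region of highest −log10 q was chr7:157342176-157343537 with a fold of 10.6, near the far end of the gene, and the widest was chr7:157782331-157786683 at 4.35 kb. At RBFOX3 they were chr17:77374185-77376701 with a fold of 9.13 and chr17:77203277-77208851, a run of 5.58 kb with a fold of 8.90. At CELF4 the strongest lay just upstream of the start, at chr18:35146541-35147986, with a fold of 10.0. In Ctrl, whose list had a median fold of 4.83, the strongest regions were chr7:157493350-157493658 at PTPRN2 with a fold of 5.41 and chr17:77244279-77244839 at RBFOX3 with a fold of 5.50, and both overlapped regions of H1-10 OE.

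The starts of PTPRN2 and CELF4 showed how H3K27me3 and initiating polymerase lay to each other. At the PTPRN2 start, Ctrl had a Pol2S5p region, chr7:158380148-158380982, with a fold of 8.65 and a −log10 q of 21.5. The H1-10 OE, siE2F3 and siCtrl lists had no Pol2S5p region within 5 kb of this start. Ctrl also had an E2F3 region there, chr7:158380116-158381183, with a fold of 22.8 and a −log10 q of 94.3, the strongest E2F3 region of the 6 loci. In H1-10 OE no E2F3 region was listed. H1-10 OE had H3K27me3 regions on both sides of the start, chr7:158379083-158380318 and chr7:158380752-158382357, with folds of 5.66 and 5.31, and both overlapped the Ctrl polymerase and E2F3 regions. H3K27me3 within 5 kb of the start amounted to 3.93 kb in H1-10 OE and 0 kb in Ctrl.

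At the CELF4 start polymerase was listed in all 4 Pol2S5p lists. The regions there were 0.465 kb wide in H1-10 OE and 1.14 kb wide in Ctrl, and 0.477 kb wide in siE2F3 and 0.742 kb wide in siCtrl. The H1-10 OE polymerase region, chr18:35145994-35146458, sat in a gap between H3K27me3 regions of the same condition, 82 bp from the one upstream and 164 bp from the one inside the gene. The wider Ctrl polymerase region, chr18:35145474-35146609, reached over both of those H1-10 OE regions by 425 bp in all. H3K27me3 within 5 kb of the CELF4 start was 3.99 kb in H1-10 OE and 0 kb in Ctrl. An E2F3 region of Ctrl, chr18:35145923-35146760 with a fold of 10.4, lay over the start, and none was listed in H1-10 OE.

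The H3K27me3, Pol2S5p and E2F3 regions of H1-10 OE and Ctrl in the LRRC7 window were used in choosing this gene and are given as a description. H3K27me3 covered 3.665 kb (36.6% of the 10-kb window) in H1-10 OE cells and 0 kb in Ctrl cells. The larger region, chr1:70033037-70035689, had a fold of 10.6 and a −log10 q of 24.7. Pol2S5p covered 0 kb in H1-10 OE and 0.405 kb in Ctrl, and was listed in neither siE2F3 nor siCtrl cells. The Ctrl polymerase region chr1:70032863-70033267 had a fold of 4.53, and the stronger of the 2 E2F3 regions of Ctrl, chr1:70032950-70033388, had a fold of 11.8. Both overlapped the larger H3K27me3 region of H1-10 OE. E2F3 was not listed in H1-10 OE.

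**Figure D3:**
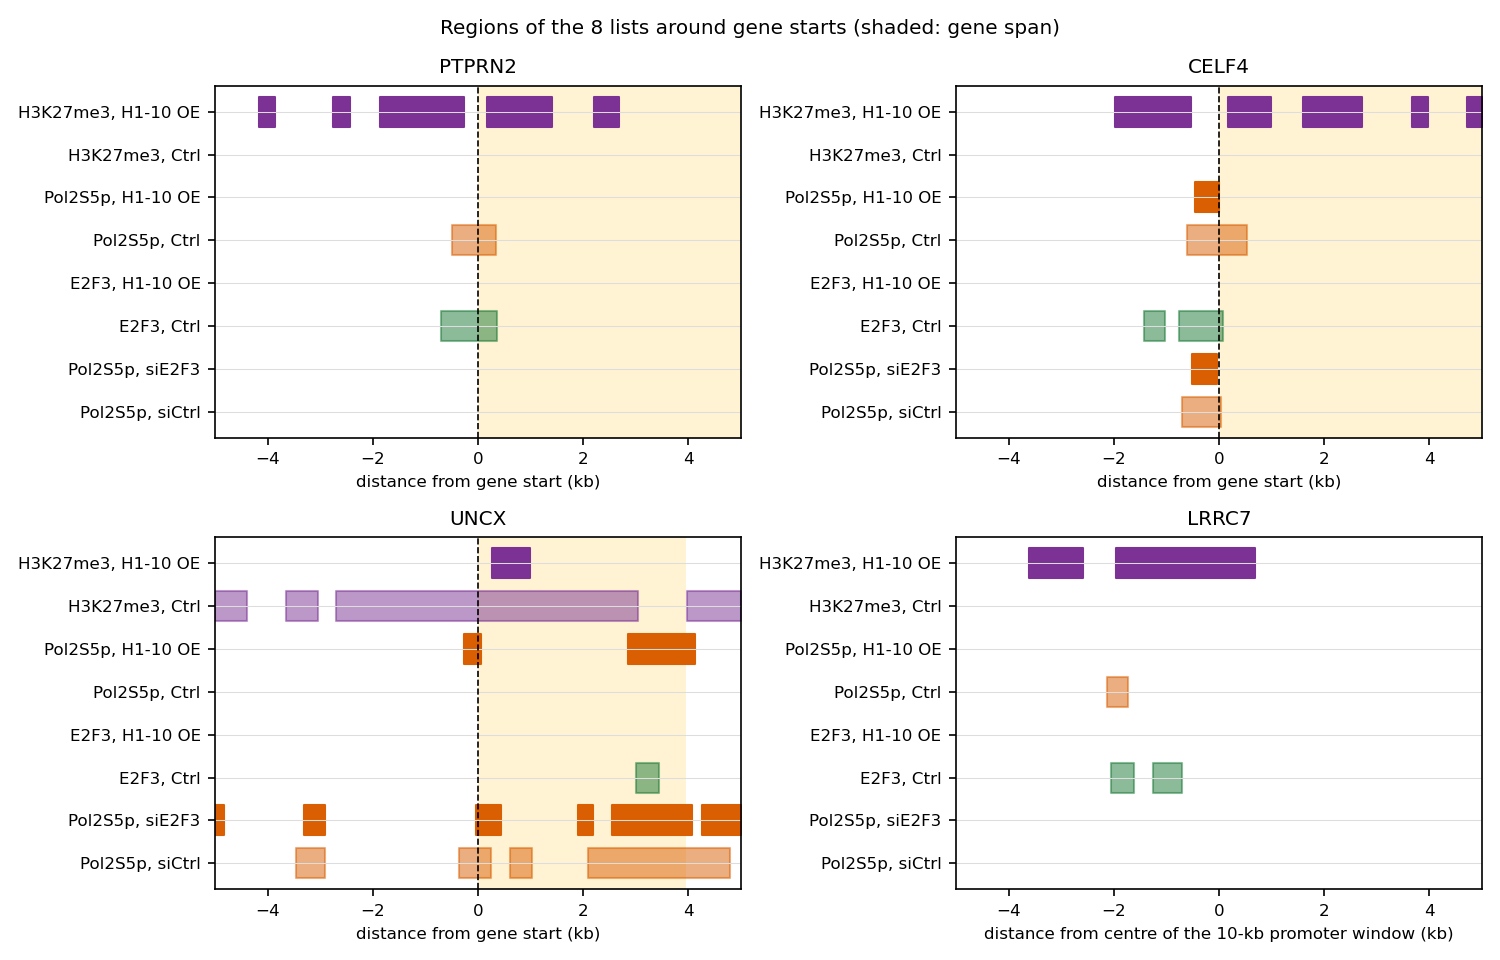
Regions of the 8 lists within 5 kb of the starts of PTPRN2, CELF4 and UNCX and of the centre of the LRRC7 promoter window, as boxes along the distance in kb; each row is 1 library, H1-10 OE above Ctrl and siE2F3 above siCtrl, and shading marks the gene span. At PTPRN2 the Pol2S5p and E2F3 regions of Ctrl lie over the gap between H3K27me3 regions of H1-10 OE, at CELF4 Pol2S5p is in all 4 of its lists, and at UNCX it is in every one but Ctrl.

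Elsewhere in the long genes polymerase was sparse and lay mainly at the ends of the loci. At PTPRN2, Pol2S5p covered 2.53 kb in H1-10 OE and 4.61 kb in Ctrl, and 4.40 kb in siE2F3 and 6.02 kb in siCtrl. All of it except the Ctrl start region was in the flank upstream of the gene, on the side of NCAPG2. At RBFOX3 it covered 6.52 kb in H1-10 OE and 2.79 kb in Ctrl, and 17.9 kb in siE2F3 and 19.6 kb in siCtrl. Almost all of this lay at the far end of the gene and in the flank beyond it, on the side of ENGASE, where a single region of 13.5 kb in siE2F3 (chr17:77076072-77089554) faced one of 14.3 kb in siCtrl (chr17:77075303-77089581). At CELF4 it covered 1.82 kb in H1-10 OE and 1.996 kb in Ctrl, and 2.22 kb in siE2F3 and 3.55 kb in siCtrl. The CELF4 order of H1-10 OE and Ctrl turned round, to 0.112 kb more in H1-10 OE, when peaks under a −log10 q of 5 were left out. Besides the start, a place near the far end of CELF4 was in all 4 lists. It was the stronger of the 2 Pol2S5p regions of H1-10 OE at CELF4 (chr18:34833406-34834757, fold 20.9, where the start region had 8.24). In Ctrl the start region was the stronger, with a fold of 14.9 where chr18:34833851-34834419 near the far end had 7.22.

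**Figure D4:**
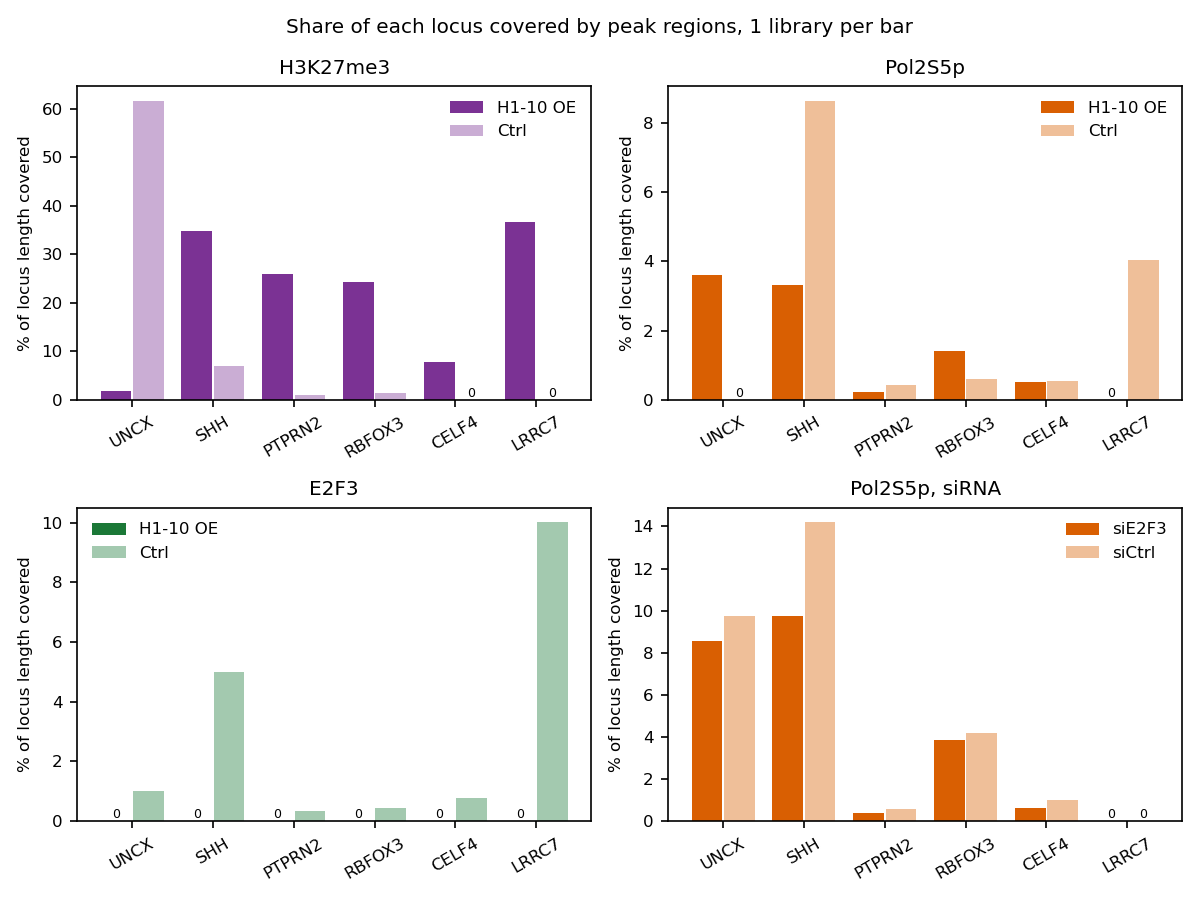
Share of each locus covered by regions, in percent of locus length, for H3K27me3, Pol2S5p, E2F3 and Pol2S5p with siRNA. Each bar is 1 library with no error bar, dark for H1-10 OE or siE2F3 and pale for Ctrl or siCtrl. A 0 marks a list with no region at that locus. H3K27me3 is higher in H1-10 OE at 5 of 6 loci and higher in Ctrl at UNCX; E2F3 is 0 in H1-10 OE at all 6.

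Taking the loci together, 5 of 6 had more H3K27me3 length in H1-10 OE than in Ctrl, as their selection fixed. Of the 553 H3K27me3 regions of H1-10 OE at the loci, 527 (95.3%) met no Ctrl region, against 97.2% over the whole H1-10 OE list. Of the 53 Ctrl regions, 25 (47.2%) met no H1-10 OE region, against 77.6% over the whole Ctrl list. These are the values that chose the loci, and regions of 1 locus are not independent, so the shares are given without intervals and nothing is read from their distance to the background. Those 25 were 11 at UNCX, 8 at RBFOX3, 6 at PTPRN2 and 0 at SHH. The H1-10 OE regions of the loci reached a −log10 q of at least 5 in 39.6% of cases, against 19.0% of that whole list. For Ctrl the shares were 30.2% at the loci and 26.8% in the whole list. The same limit holds for these shares, and 384 of the 553 H1-10 OE regions were at PTPRN2.

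The direction at each locus was the same with lists of equal length. The same libraries had chosen the loci, so this describes the lists and cannot test the direction. When the H1-10 OE list was shortened to its 2540 strongest peaks, the length of the Ctrl list, coverage was 0 kb in H1-10 OE against 27.1 kb in Ctrl at UNCX. It was 11.9 kb against 3.44 kb at SHH, 111.1 kb against 9.80 kb at PTPRN2 and 76.0 kb against 6.08 kb at RBFOX3. At CELF4 and LRRC7 it was 9.15 and 3.665 kb in H1-10 OE against 0 kb in Ctrl. The excess in H1-10 OE was thus smaller at SHH, PTPRN2, RBFOX3 and CELF4 than with the full lists.

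The loci were also set among windows of 50 kb across the genome, and their ranks differed widely. Windows were kept where either list covered at least 1 kb, and one was called where covered length plus 0.5 kb differed at least 2-fold. These windows hold the values that chose the loci, so their counts and ranks are a description. Of 38 kept windows at the loci, 36 had more H3K27me3 in H1-10 OE, where 87.0% of all 2940 windows did. PTPRN2 alone gave 21 of those 36. The UNCX window alone had more in Ctrl, where 8.16% of all windows did. That window was the most covered of the 1135 windows with any H3K27me3 in Ctrl, at 29.5 kb, and ranked 3323 of 6374 in H1-10 OE, at 0.742 kb. Of the 2 SHH windows, chr7:155600001-155650000 was the most covered of the 6374 in H1-10 OE, at 28.3 kb. It ranked 70 of 1135 in Ctrl, at 4.16 kb. This window runs upstream past the end of the locus, which had 17.2 kb in all in H1-10 OE. The other SHH window had 1.16 kb in H1-10 OE. The best windows of RBFOX3 and PTPRN2 in H1-10 OE ranked 2 and 4 there, at 27.1 and 25.9 kb. Those windows had 0.478 and 1.26 kb in Ctrl. The best windows of these genes in Ctrl were others, ranked 127 and 128, at 2.52 and 2.49 kb. The best windows of CELF4 and LRRC7 ranked 90 and 490 in H1-10 OE, at 10.6 and 4.26 kb.

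**Figure D5:**
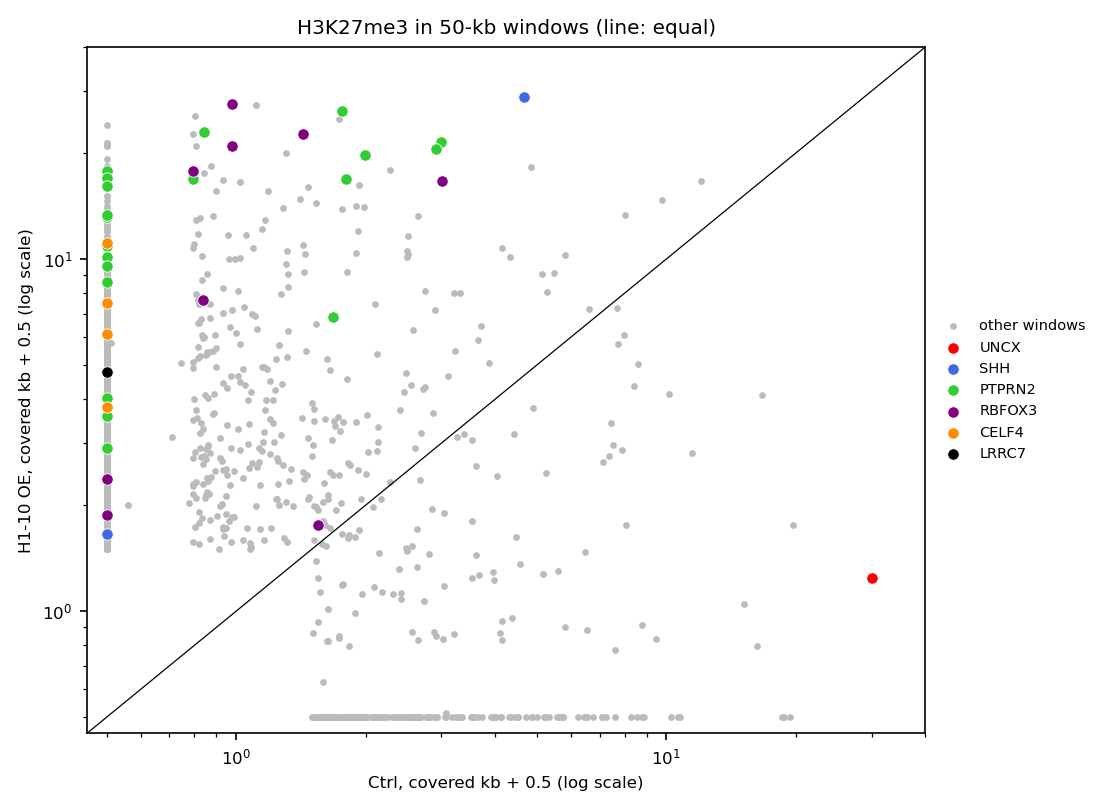
H3K27me3 covered length in 50-kb windows, H1-10 OE on the vertical axis and Ctrl on the horizontal axis, each as kb plus 0.5 on a log scale; coloured points are windows of the 6 loci, grey points are the other kept windows, and the line marks equal length. The UNCX window lies farthest right, with 0.742 kb in H1-10 OE and 29.5 kb in Ctrl. The highest point is 1 of the 2 SHH windows, with 28.3 kb in H1-10 OE and 4.16 kb in Ctrl.

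Pol2S5p, which did not choose the loci other than LRRC7, gave small counts that are set beside the background. Of 22 Pol2S5p regions in H1-10 OE, 10 (45.5%) met no Ctrl region, against 42.8% of the whole list. Of 18 in Ctrl, 6 (33.3%) met no H1-10 OE region, against 41.0%. Among 7 kept windows, 3 had at least 2-fold more Pol2S5p in H1-10 OE (14.3% of all windows) and 1 had more in Ctrl (12.9%). The 3 were at UNCX, at RBFOX3 (6.13 against 2.79 kb) and at PTPRN2 (1.39 against 0.288 kb). That PTPRN2 window, chr7:158400001-158450000, lay almost wholly beyond the locus, which ended at 158400482. The PTPRN2 locus itself had less Pol2S5p in H1-10 OE, at 2.53 kb against 4.61 kb. Pol2S5p covered more in H1-10 OE at 2 of the 6 loci, UNCX and RBFOX3. Of the 29 places with Pol2S5p in any list, 9 were in all 4 lists, 1 was in H1-10 OE alone, at RBFOX3, and 2 were in Ctrl alone, at PTPRN2 and LRRC7.

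The E2F3 list of H1-10 OE had 0 of its 4296 regions at the loci, and 85.9% of that list met no Ctrl region. The Ctrl list had 24 regions there, namely 8 at PTPRN2, 5 at RBFOX3, 5 at CELF4, 3 at SHH, 2 at LRRC7 and 1 at UNCX. All 24 were in Ctrl alone, as were 97.4% of the whole Ctrl list, so this is near the background. The same holds for the 4 kept windows, all with more E2F3 in Ctrl (91.2% of all windows, against 5.72% with more in H1-10 OE). With the Ctrl list shortened to its 4296 strongest peaks, 2 of the 24 remained.

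Many E2F3 regions of Ctrl lay on H3K27me3 regions of H1-10 OE, in loci of which 5 were chosen for having much of that mark. Of the 24, 13 (54.2%) overlapped H3K27me3 regions of H1-10 OE, against 2.60% of all E2F3 regions of Ctrl. By locus these were 4 of 8 at PTPRN2, 3 of 5 at CELF4, 2 of 5 at RBFOX3, 2 of 3 at SHH, 2 of 2 at LRRC7 and 0 of 1 at UNCX. With H3K27me3 of Ctrl itself 1 of 24 overlapped, at UNCX, against 0.883% of all E2F3 regions of Ctrl. Overlap with Pol2S5p was found for 6 of 24 (25.0%) in H1-10 OE and 6 of 24 in Ctrl, against 64.6% and 68.0% of all E2F3 regions of Ctrl. It was found for 6 of 24 in siE2F3 and 9 of 24 in siCtrl, against 67.8% and 70.6%. The 24 regions were weak for their list, with a median fold of 5.54 against 8.98 over the whole list. Whether overlap with Pol2S5p differs from that of E2F3 regions of like strength was not tested.

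Pol2S5p regions were also placed against H3K27me3, in loci whose choice by H3K27me3 raises any such overlap above the whole list, so nothing is read from the excess. In H1-10 OE, 0 of 22 Pol2S5p regions overlapped H3K27me3 of the same condition, a count that the share of the whole list (0.455%) would also give, and 4 (18.2%) lay within 5 kb of it, against 1.44% of the whole list. In Ctrl, 0 of 18 lay within 5 kb. Across conditions, 4 of 18 Pol2S5p regions of Ctrl (22.2%) overlapped H3K27me3 of H1-10 OE, against 0.848% of the whole list. They were 1 each at PTPRN2 and LRRC7, which was selected on this region too, and 2 at CELF4. In the other direction, 2 of 22 Pol2S5p regions of H1-10 OE overlapped H3K27me3 of Ctrl, against 0.559% of the whole list, and both were at UNCX, which was chosen for its H3K27me3 in Ctrl.

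In siE2F3 cells Pol2S5p covered less length than in siCtrl cells at 5 of the 6 loci, and LRRC7 had none in either list. Much of this length lay in the flanks. The PTPRN2 span had 0 kb in both lists, and the SHH span had 0 kb in siE2F3 and 0.636 kb in siCtrl. At RBFOX3 the flank held 12.3 of 17.9 kb in siE2F3 and 13.6 of 19.6 kb in siCtrl. Most regions were shared. Of 26 regions in siE2F3, 3 (11.5%) met no siCtrl region, against 22.9% of the whole list, and of 23 in siCtrl, 5 (21.7%) met no siE2F3 region, against 30.6%. None of 7 kept windows differed 2-fold in either direction, where 1.05% of all windows had more in siE2F3 and 3.86% more in siCtrl. The siCtrl list covers more of the genome as a whole, with 90.7 Mb in siE2F3 and 102.5 Mb in siCtrl.

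By the 8 lists together, the windows most like that of UNCX outside the loci were chr7:150001-200000, chr7:1400001-1450000 and chr10:131750001-131800000. Likeness was the Euclidean distance of log10 covered length over the 8 lists, and was 0.618, 0.931 and 0.932 for these windows. Since all 8 lists entered the search, the values shared with UNCX or SHH follow from it and are no separate result. Their H3K27me3 covered 0.299, 0.549 and 2.46 kb in H1-10 OE, against 15.7, 14.7 and 7.01 kb in Ctrl. Each had Pol2S5p in H1-10 OE, of 1.74, 1.01 and 1.49 kb, and 0 kb in Ctrl. For SHH they were chr20:61700001-61750000, chr19:1750001-1800000 and chr12:132900001-132950000, at distances of 0.512, 0.539 and 0.607. Their H3K27me3 covered 11.1, 16.1 and 8.65 kb in H1-10 OE, against 2.01, 11.6 and 4.98 kb in Ctrl. Like the SHH window used for the search, chr7:155600001-155650000, they had no Pol2S5p in any of the 4 lists. No gene is named for these windows because no annotation of hg19 was used.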

How the data were processed

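ChIP-seq peak lists of 22Rv1 were taken as deposited, 1 list per library. FastQC, fastp and Bowtie and the build hg19 are named in the submitters' processing notes. Tool versions, the caller of the peaks, the cutoff and the matching input are not given in the sources used, so depth and calling may affect every list. Each deposited list gives a score, a fold enrichment (ratio to the authors' background), and −log10 p and −log10 q values. The deposited summit offset, in bp from the peak start, was not used.

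Deposited peaks were used as regions without joining, clipped to each locus for covered length, and counted as shared at 1 bp of overlap. Places with Pol2S5p are overlapping regions of its 4 lists joined together. Gene starts are span ends, by the strand RefSeq gives (for PTPRN2, the minus strand). LRRC7 is measured from its window centre. The members and lists were chosen with earlier results of these data known. Named regions are, per locus and list, the 3 of highest −log10 q, the widest, and those over a span end; others beside a start were named after their values were seen. Pathway lists were not placed, since no hg19 annotation was used. Groups follow the sample labels. The overlap code was tested on simulated intervals. Python 3.11.15, numpy 2.4.6, pandas 2.3.3 and matplotlib 3.10.9 were used. Alternatives were equal list lengths, only peaks with −log10 q of 5 or more, 50% reciprocal overlap, merging within 1 kb, other widenings, windows of 100 kb, a 4-fold limit and a distance of 1 kb.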

Additional observations from a re-analysis of the deposited data

How the results depend on the processing

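With 1 library per group and unknown depth, only settings could be varied. No paired analysis was possible because each group has 1 library. The number of loci with more coverage in H1-10 OE than Ctrl, or in siE2F3 than siCtrl, was 5 for H3K27me3 and 0 for the siRNA pair under every alternative run; for Pol2S5p it was 2, and 3 at a −log10 q of at least 5. The H3K27me3 count uses the contrast that chose the loci, so its constancy is a description. For E2F3 the count can only be 0, as H1-10 OE had no region at the loci. With equal list lengths the E2F3 difference was 0 kb at every locus but PTPRN2. Of 120 comparisons of covered length at single loci 1 changed sign, that of CELF4 Pol2S5p (H1-10 OE minus Ctrl, to 0.112 kb at a −log10 q of at least 5; 38 others moved). Counts of regions in 1 list only depended more on the settings. For H3K27me3 in H1-10 OE the count of 527 became 213 at a −log10 q of at least 5, 147 with equal list lengths and 218 with peaks within 1 kb merged. For H3K27me3 in Ctrl the count of 25 became 10 at a −log10 q of at least 5, 46 with 50% reciprocal overlap, 14 with merging, 14 with spans not widened and 49 with spans widened by 50 kb. For Pol2S5p the 10 of H1-10 OE became 17 with reciprocal overlap and 5 with spans not widened, and the 6 of Ctrl became 13 with reciprocal overlap and 3 with merging or spans not widened. The 24 E2F3 regions of Ctrl became 2 with equal list lengths. The 3 of siE2F3 became 14 with reciprocal overlap, 1 with spans not widened and 6 with spans widened by 50 kb, and the 5 of siCtrl became 11, 3 with merging, and 12 with spans widened by 50 kb. At 4-fold, 57.3% of windows had more H3K27me3 in H1-10 OE and 4.56% more in Ctrl. Within 1 kb, 2 Pol2S5p regions of H1-10 OE lay near H3K27me3. Stricter lists hold fewer regions by construction; other causes were not tested.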
